A study of Caenorhabditis elegans with 16 samples.

Results

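Transcripts of dissected Caenorhabditis elegans germline tumors were compared between animals given auxin for 4 h and control animals given none. The comparison used 12 of the 16 libraries of the series: 4 controls, 4 libraries after 2 h of auxin and 4 after 4 h. All animals, the controls included, were of the Bristol strain and carried the transgene ieSi64[gld-1p::tir1::mRuby], the altered allele lag-1(oz536oz537), the receptor allele glp-1(ar202), and the mutations q497 of gld-2 and q485 of gld-1. They were 1-day-old adults that had been synchronised as L1 larvae and grown for 48 h at 25 °C, and auxin was given at 1 mM before dissection. TIR1 is a plant auxin receptor through which auxin marks degron-bearing proteins for breakdown, and here the gld-1 promoter drives it. What the lag-1 change is goes unstated in the labels, no LAG-1 protein level was analysed here, and no group had auxin without the lag-1 change, so effects of auxin itself cannot be told apart. The series states biological replicates without saying how each was collected, so p-values cover only the spread among these libraries.

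LAG-1 binds DNA as the transcription factor at the end of Notch signalling. In the worm gonad, a somatic niche signals to the germline Notch receptor GLP-1, and with LAG-1 and its partner SEL-8 the activated receptor switches on genes that keep germ cells as mitotic stem cells, of which lst-1 and sygl-1 are the best known. GLD-1 and GLD-2 act in the pathways that take germ cells out of mitosis and into meiosis, where HORMA-domain proteins and cohesins build the chromosome axis and the synaptonemal complex joins paired homologs.

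The controls and the 4 h libraries were deposited in separate tables and never share one. The first table held the controls with 2 h libraries 1 and 2, and the second held the 4 h libraries with 2 h libraries 3 and 4. The 4 h minus control difference was therefore the sum of the step from control to 2 h within the first table and the step from 2 h to 4 h within the second. All log2 values below are on the log2(CPM + 1) scale, where CPM is reads scaled to a common library total, and this scale understates the change of low genes. A gene was tested where at least 2 libraries of each table reached 1 CPM, which kept 7240 of 46536 genes. "Rose" and "fell" are used of genes with an adjusted p under 0.05 (limma, Benjamini-Hochberg over the 7240 genes). The link costs precision: its standard error was 1.73 times that of a direct comparison of the same libraries, with a median over genes of 0.252.

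Library totals ran from 17737570 to 33823964 reads. Controls 1 and 3 stood apart, with 53.3% and 51.7% of reads in ribosomal RNA against 34% in controls 2 and 4, 33.6% to 39.1% in the 2 h libraries and 37.8% to 44.7% in the 4 h libraries. Long protein-coding genes were also low against short ones in these controls, by -0.69 and -0.59 (log2, longest minus shortest length class after centring). A library of the 48 h group, which enters only the variance estimate, shared both features at 44.9% and -0.42. The median of all genes was 0.18 (log2) higher at 4 h than in controls, and -0.05 without controls 1 and 3. After centring each library on its median it was -0.04, which that step brings near 0 by construction. Every fold is read against that shift, whose cause was not tested. Markers of the germline were high: 8 of them summed to 1410 to 2780 CPM in controls and 1770 to 2030 CPM at 4 h. Of the sperm markers, msp-3 was at 0 in all 12 libraries and the sum of 6 was at most 1.58 CPM in controls and 1.35 CPM at 4 h. Intestinal markers (8 genes) summed to 16.6 to 34.1 CPM in controls and 15 to 17.2 CPM at 4 h. Under 1 CPM in all 12 libraries were elt-2, ges-1, asp-1 and cpr-6, but not itr-1, lbp-6, vit-2 and vit-6. In controls itr-1 reached 11.6 CPM and vit-6 12.8 CPM. Sums in controls and at 4 h were 275 to 703 and 493 to 646 CPM for oocyte markers, and 30.8 to 55.6 and 31.2 to 41.6 CPM for muscle. They were 24.5 to 45.6 and 30.7 to 41.8 CPM for neurons, 13.5 to 24 and 19.5 to 26.6 CPM for epidermis, and 39.3 to 46.6 and 34 to 37.4 CPM for somatic gonad. Tumor tissue is a bulk sample, so fewer cells of a type and less RNA per cell cannot be told apart.

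After 4 h of auxin 10 of the 7240 genes differed from control (0.138%), 8 of them higher (0.11%) and 2 lower (0.0276%). The rises included 3 of the 4 HORMA-domain genes of the meiotic chromosome axis, htp-1, htp-2 and him-3, and the mitotic cyclin gene cyb-2.2. The falls were ZK1290.5, which the deposited description names an uncharacterized oxidoreductase, and the small nucleolar RNA gene C17H12.36. At an unadjusted p under 0.05, 367 genes were higher (5.07%) and 51 lower (0.704%). Counts in the gene lists below are read against these shares. In all 10 genes the 4 h libraries lay wholly on one side of the controls, which the choice by this test favours and which also held for 11.3% of all genes upward and 5.06% downward, and both steps had the sign of the sum. Those shares also apply wherever 4 h and control libraries are said below not to overlap. No share was computed with the 2 h libraries included. In 7 of the 8 rises controls 1 and 3 were the 2 lowest controls, as in 74.8% of all genes, him-3 being the exception, and in neither fall.

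**Figure D1:**
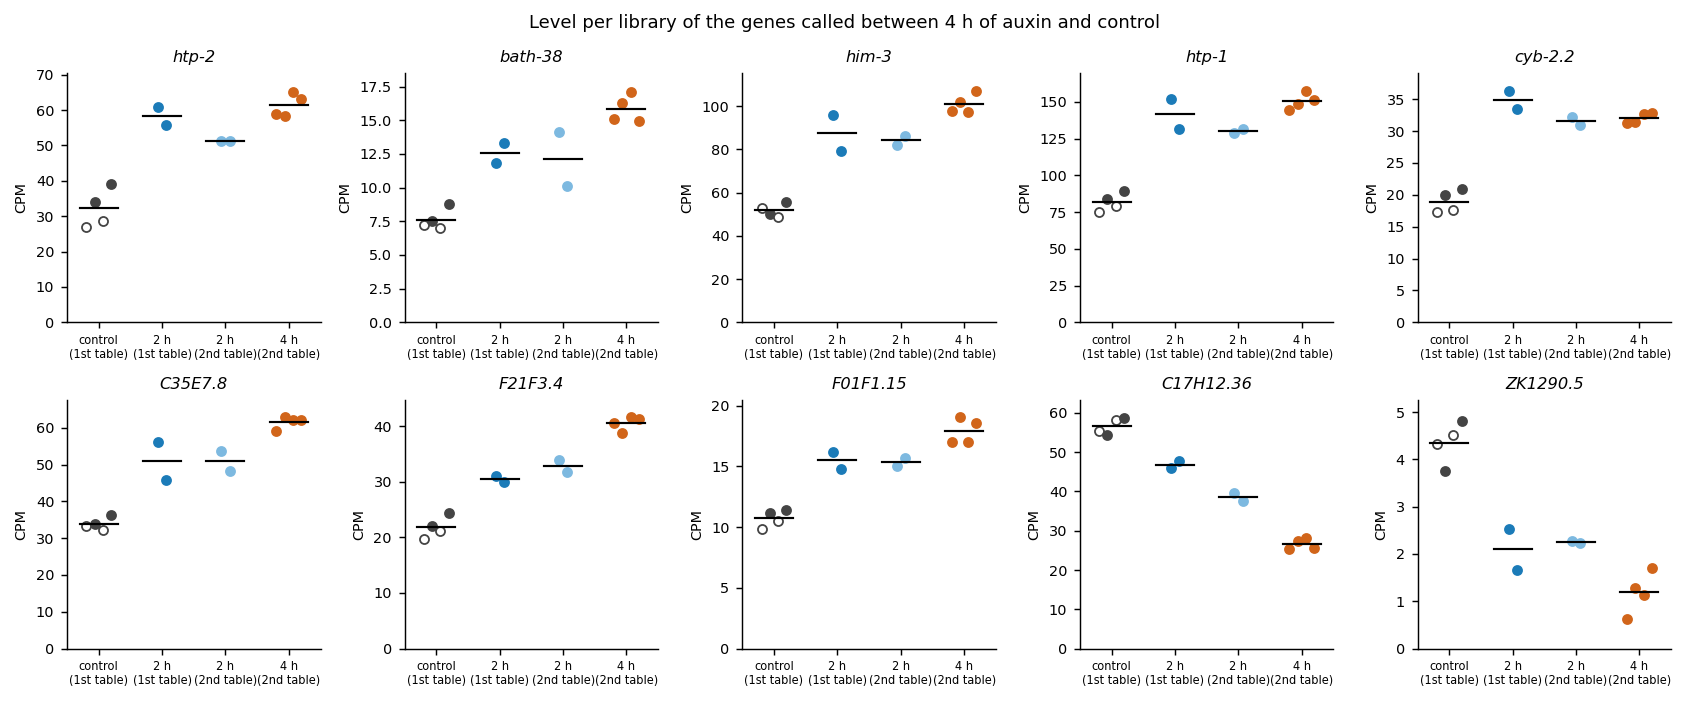
CPM (y axis, linear from 0) of the 10 genes that passed the test, in each control, 2 h and 4 h library; points are libraries, lines are means, and open points are controls 1 and 3. For each gene the 4 h points are clear of the control points, and in 7 of the 8 rises the open points are the lowest control points.

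The axis genes were higher by 2 h and stayed so at 4 h. For htp-1 (WBGene00002032, chromosome IV, 5390189 to 5391557 in WBcel235), whose HORMA-domain product helps monitor synapsis and protect cohesion, controls 1 to 4 measured 75.4, 83.8, 79.1 and 89.7 CPM. The 2 h libraries measured 152 and 132 CPM in the first table and 128.7 and 131.3 CPM in the second, and the 4 h libraries measured 144, 149, 157 and 151 CPM. Every auxin library lay above every control, with a log2 difference at 4 h of 0.99 ± 0.16 (SE, limma adjusted p = 0.0427), made of 0.78 at the first step and 0.21 at the second.

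Its close paralog htp-2 (WBGene00002033, chromosome IV, 6419522 to 6420898) measured 26.97, 34.1, 28.6 and 39.01 CPM in controls, 60.9 and 55.9 then 51.3 and 51.2 CPM at 2 h, and 58.8, 58.3, 65.2 and 63.0 CPM at 4 h. The log2 difference was 1.11 ± 0.18 (SE, limma adjusted p = 0.0427). How reads that match both htp-1 and htp-2 were counted is unstated in the labels, so the split between them is uncertain. The third, him-3 (WBGene00001862, chromosome IV, 6977508 to 6978765), encodes an axis protein needed for homolog pairing and synapsis. It measured 52.9, 50.3, 48.9 and 55.5 CPM in controls, 96.0 and 79.2 then 82.1 and 86.2 CPM at 2 h, and 97.9, 102, 97.2 and 107 CPM at 4 h, a log2 difference of 1.00 ± 0.16 (SE, limma adjusted p = 0.0427). Control 1 lay among the other controls of him-3 and control 3 was the lowest of the 4. The gene overlaps prkl-1 on the opposite strand, and without a stated strand setting the reads of this pair cannot be told apart.

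The fourth HORMA-domain gene, htp-3 (WBGene00002034), whose product is the axis protein on which the other HORMA proteins load, measured 78.3, 140, 89.6 and 150 CPM in controls 1 to 4. At 2 h it measured 197 and 198 CPM, then 186 and 182 CPM, and at 4 h 199, 222, 222 and 222 CPM. All auxin libraries were above all controls, but the controls split by library, 1 and 3 being low, and the log2 difference of 1.07 ± 0.35 (SE) did not pass (limma adjusted p = 0.577). Without controls 1 and 3 and the 48 h library that stood apart, htp-3 was 0.67 higher with an adjusted p of 0.00323.

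The chromosome axis and cohesin list held 13 tested genes, of which 3 rose (against 0.11% of all genes) and 0 fell, with 5 higher (against 5.07%) and 0 lower at an unadjusted p under 0.05. edgeR called htp-2 and coh-4, and DESeq2 called htp-1, htp-2, htp-3 and coh-4, so him-3 was called by neither and htp-1 not by edgeR. Their median log2 difference was 0.58 against 0.18 over all genes, 0.36 after centring against -0.04, and 0.08 without controls 1 and 3 against -0.05. Leaving out controls 1 and 3 and the 48 h library split the list. The HORMA genes and the kleisin gene coh-4 rose in that fit (5 of 13; 0.387% of all genes rose and 0.318% fell). coh-4 encodes a meiotic cohesin subunit. It measured 55.1 ± 14.1 CPM (SD, n = 4) over all 4 controls and 91.9 ± 3.85 CPM (SD, n = 4) at 4 h. With all libraries its difference of 0.80 did not pass (limma adjusted p = 0.577). Without the 3 libraries, which leaves controls 2 and 4 at 68.3 and 66.2 CPM, it was 0.48 higher (limma adjusted p = 0.0242). The remaining cohesin genes had values near 0 in the same fit, such as rec-8, the main meiotic kleisin, at 0.01 and coh-3 at 0.08. Others were smc-3 at -0.13, scc-1 at -0.04 and scc-3 at 0.18. How any reads that match both coh-3 and coh-4 were counted is also unstated. lab-1, which encodes a protein that protects cohesion on the long arms of meiotic chromosomes, measured 6.58 to 7.79 CPM in controls and 5.75 to 7.80 CPM at 4 h, and its groups overlapped.

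**Figure D2:**
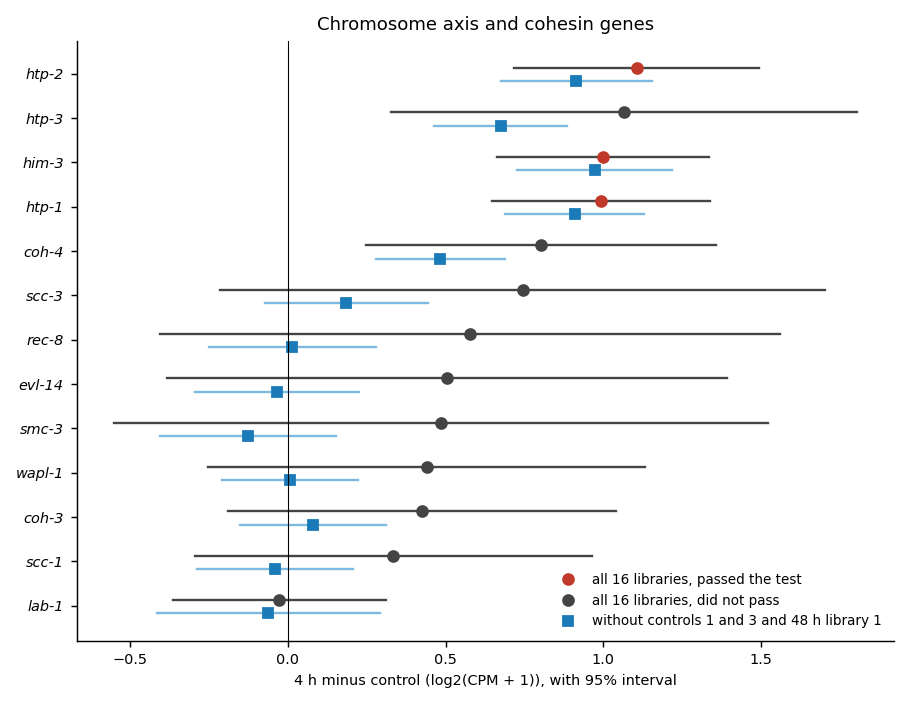
Log2 difference of 4 h minus control (x axis, log2(CPM + 1)) with 95% intervals for the 13 chromosome axis and cohesin genes, from all 16 libraries (circles) and without controls 1 and 3 and 48 h library 1 (squares). The 4 HORMA-domain genes and coh-4 keep intervals above 0 in both fits, while rec-8, smc-3 and scc-1 move from about 0.33 to 0.58 to near 0.

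Of the 6 tested genes of the synaptonemal complex, 4 were above 0 and 2 below. By limma 0 rose or fell, edgeR called 0, DESeq2 called 1 higher (syp-4), and 4 were higher at an unadjusted p under 0.05 (against 5.07% of all genes). Those were the central region genes syp-1 (0.58), syp-2 (0.53), syp-3 (0.51) and syp-4 (0.77), while skr-1 (-0.02) and skr-2 (-0.08), which also serve ubiquitin ligases, were near 0. Mean levels of syp-1 were 11.6 CPM in controls and 13.2 CPM at 4 h, and its 2 h libraries differed between the tables by -0.40. For syp-2, controls measured 29.6, 32.3, 31.5 and 33.9 CPM, the 2 h libraries 47.5, 40.9, 43.6 and 41.6 CPM, and the 4 h libraries 44.01, 42.5, 45.3 and 47.15 CPM. Its auxin libraries and controls did not overlap (4 h above all controls in 11.3% of all genes). The list's median was 0.52, and 0.40 without controls 1 and 3.

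The 37 tested genes of pairing, double-strand breaks and crossovers gave 0 calls by limma, with 4 higher and 0 lower at an unadjusted p under 0.05 (against 5.07% and 0.704% of all genes). These were him-5 (0.68), dsb-1 (0.70), him-6 (0.98) and dsb-2 (0.52), of which him-5, dsb-1 and dsb-2 promote break formation and him-6 encodes a RecQ-type helicase. edgeR on recovered reads called dsb-1, and DESeq2 called dsb-1 and him-6. The list's median of 0.27 turned to -0.08 without controls 1 and 3.

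The cyclin B gene cyb-2.2 (WBGene00000867, chromosome I, 4114861 to 4116370) rose. Controls measured 17.3, 19.95, 17.6 and 20.98 CPM, the 2 h libraries 36.3 and 33.4 then 32.1 and 30.95 CPM, and the 4 h libraries 31.2, 31.5, 32.7 and 32.9 CPM. The whole difference was present at 2 h: the steps were 0.85 and 0.02, and the sum was 0.87 ± 0.13 (SE, limma adjusted p = 0.0427). Its paralog cyb-2.1, which may share reads with it, was 0.72 higher without passing (adjusted p = 0.101) and rose without the libraries that stood apart (0.60, adjusted p = 0.0191). Of the other B-type cyclin genes, cyb-1 had a difference of 0.89 and cyb-3 one of -0.21, and neither passed by limma. Without controls 1 and 3 and the 48 h library they were 0.48 and -0.69, again without passing (limma adjusted p = 0.0717 and 0.0564). With centring as well both passed, at 0.53 and -0.64 (limma adjusted p = 0.00114 and 0.00808).

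Among the 73 tested genes of the mitotic cell cycle, 1 rose (cyb-2.2) and 0 fell (0.11% and 0.0276% of all genes). At an unadjusted p under 0.05, 7 were higher and 0 lower (5.07% and 0.704% of all genes). edgeR called 0, and DESeq2 called cki-2, cyb-1 and cyb-2.2 higher and hcp-3 lower. The kinase gene cdk-1, partner of B-type cyclins, was 0.47 higher, and the cyclin-dependent kinase inhibitor gene cki-2 was 0.87 higher, both without passing by limma. Mean levels of cki-2 were 9.92 CPM in controls and 12.1 CPM at 4 h. At 2 h they were 18.2 CPM in the first table and 11.9 CPM in the second, a difference of -0.57. The list's median was 0.33, and -0.08 without controls 1 and 3. DNA replication genes gave 0 calls by limma, edgeR or DESeq2 among 40, with 1 at an unadjusted p under 0.05 and a median of 0.21, close to the 0.18 of all genes.

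The 4 other rises are genes with little annotation in the deposited tables. bath-38 (WBGene00009945, chromosome II, 10042780 to 10045270), described as a BTB and MATH domain protein, measured 7.21, 7.54, 7.001 and 8.76 CPM in controls, 11.8, 13.3, 14.1 and 10.1 CPM at 2 h, and 15.1, 16.3, 17.1 and 14.95 CPM at 4 h. Its log2 difference was 1.03 ± 0.18 (SE, limma adjusted p = 0.0489), and it overlaps another annotated gene on its own strand. F21F3.4 (WBGene00017674, chromosome I, 4895921 to 4897641) rose by 0.77 ± 0.14 (SE, limma adjusted p = 0.0492), with steps of 0.47 and 0.30, from 19.6, 22, 21.2 and 24.4 CPM in controls through 31.04, 29.98, 33.9 and 31.7 CPM at 2 h to between 38.8 and 41.5 CPM in the 4 libraries at 4 h. The 3 groups of F21F3.4 did not overlap (4 h above all controls in 11.3% of all genes), though its reads cannot be told apart from those of unc-38 on the opposite strand. C35E7.8 (WBGene00016460) rose by 0.84 ± 0.15 (SE), from 33.9 ± 1.69 to 61.5 ± 1.67 CPM (SD, n = 4 each). F01F1.15 (WBGene00017169) rose by 0.70 ± 0.13 (SE), from 10.7 ± 0.703 to 17.9 ± 1.07 CPM (SD, n = 4 each), both with a limma adjusted p of 0.0489.

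Both falls deepened from 2 h to 4 h. C17H12.36 (WBGene00219822, chromosome IV, 6792974 to 6793200) measured 55.4, 54.4, 58.3 and 58.7 CPM in controls, 46.0 and 47.7 then 39.6 and 37.5 CPM at 2 h, and 25.34, 27.3, 28.1 and 25.5 CPM at 4 h. No 2 of the 3 groups overlapped, and the log2 difference was -0.79 ± 0.13 (SE, limma adjusted p = 0.0427), with steps of -0.27 and -0.52. The 2 h libraries of the second table lay below those of the first by -0.28. ZK1290.5 (WBGene00022887, chromosome II, 7529643 to 7530931) measured 4.33, 3.75, 4.53 and 4.81 CPM in controls, 2.54, 1.65, 2.27 and 2.24 CPM at 2 h, and 0.634, 1.29, 1.14 and 1.70 CPM at 4 h. The fall of -1.40 ± 0.24 (SE, limma adjusted p = 0.0427) was at low levels, but above the 0.143 to 0.162 CPM that a count of 0 would allow in the 4 h libraries (3 reads, counting error only).

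The 10 calls differed in how far they held under other settings. All 10 kept their sign under every alternative in which they were tested, and all 10 passed without controls 1 and 3 and the 48 h library. Median centring kept 2 of the 10, a pseudocount of 0.1 kept 4, the fit without the mean-variance trend kept 5, and leaving out controls 1 and 3 alone kept 5. All were lost with no filter on low values (923 of 18555 at an unadjusted p under 0.05). They were also lost when the 48 h libraries were left out of the variance (0 of 7240 by limma, 367 at an unadjusted p under 0.05), and on leaving out control 2, control 3 or any single 2 h or 4 h library, while leaving out control 1 kept 3.

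The Notch targets sygl-1 (-2.30) and lst-1 (-1.47) had differences of greater size than any gene that passed, ZK1290.5 (-1.40) included, yet neither passed. lst-1 (WBGene00003083, chromosome I, 10588501 to 10590465), which encodes a stem cell regulator, measured 38.9, 89.5, 35.01 and 57.1 CPM in controls. It measured 17.4 and 18.8 then 14.5 and 13.1 CPM at 2 h, and 12.2, 12.6, 15 and 14.85 CPM at 4 h. All auxin libraries were below all controls, and the controls ranged widely, controls 1 and 3 being the lowest. The log2 difference was -1.47 ± 0.38 (SE, 95% interval -2.28 to -0.66, limma adjusted p = 0.339).

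sygl-1 (WBGene00012104, chromosome I, 12483809 to 12486235), its redundant partner, measured 9.39, 29.8, 8.68 and 13.4 CPM in controls, 1.36 and 2.66 then 1.14 and 0.826 CPM at 2 h, and 0.634, 1.19, 0.9748 and 1.15 CPM at 4 h. Again no auxin library reached a control, with a log2 difference of -2.30 ± 0.55 (SE, 95% interval -3.49 to -1.12, limma adjusted p = 0.279). For both genes the second step was near 0, at -0.01 for lst-1 and under 0.01 in size for sygl-1, so no further difference from 2 h to 4 h was seen within the second table. Without controls 1 and 3 and the 48 h library both fell, lst-1 by 1.94 (adjusted p = 0.000367) and sygl-1 by 2.84 (adjusted p = 0.000936). edgeR on recovered reads called lst-1 (adjusted p = 0.00722) but not sygl-1 (0.0976), and DESeq2 called both.

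**Figure D3:**
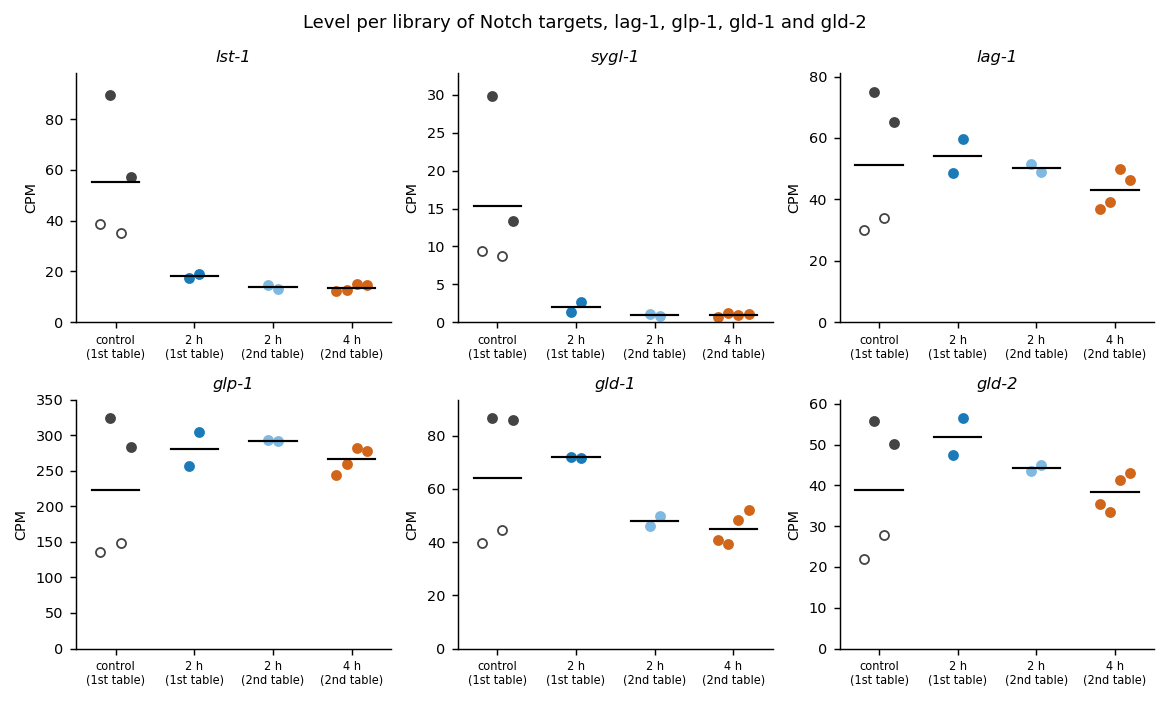
CPM (y axis, linear from 0) of the targets lst-1 and sygl-1, the receptor gene glp-1, the gld-1 and gld-2 genes, and lag-1 in each library; lines are means and open points are controls 1 and 3. All 2 h and 4 h points of lst-1 and sygl-1 lie below every control, whereas in the other 4 genes they fall between the 2 open and the 2 filled control points or near them.

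Of 8 tested known Notch targets, limma called 0, with 1 higher and 2 lower at an unadjusted p under 0.05. The 2 lower were lst-1 and sygl-1. The 1 higher was utx-1, a histone demethylase gene at 0.336, 1.35, 0.153 and 1.13 CPM in controls and 1.71, 0.999, 0.596 and 1.15 CPM at 4 h, so its groups overlapped, and its value of 1.02 rests on 2 h libraries 3 and 4 at 0.110 and 0.177 CPM. The PUF gene fbf-2, a stem cell regulator, was 0.24 higher without passing. Its mean was 139.2 CPM in controls and 139.8 CPM at 4 h, and its difference turned to -0.15 without controls 1 and 3. The phosphatase gene lip-1 (0.21) and lag-1 itself (-0.05), both listed as targets, did not pass here either. For lip-1 the mean was 3.16 CPM in controls and 2.75 CPM at 4 h, and its difference was -0.16 without controls 1 and 3.

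The receptor gene glp-1 measured 136, 324, 148 and 283 CPM in controls and 244, 259, 282 and 278 CPM at 4 h. Its 4 h libraries lay between the low controls 1 and 3 and the high controls 2 and 4, and the log2 difference of 0.29 ± 0.42 (SE) did not pass. lag-1 measured 30.2, 75.0, 33.97 and 65.3 CPM in controls and 36.8, 39.1, 49.98 and 46.2 CPM at 4 h, with the same order of libraries. Nor did gld-2 (0.29) or gld-1 (0.16) pass. The signs of these 4 genes changed with the setting. Without controls 1 and 3, glp-1 turned to -0.25, gld-1 to -0.36 and gld-2 to -0.24, and lag-1 went further below 0 to -0.60, while lag-1 was 0.17 without control 2. lag-1 passed under 1 alternative, at -0.55 with centring and without controls 1 and 3 and the 48 h library (adjusted p = 0.024). gld-1 also differed between the tables at 2 h, with 72.04 and 71.6 CPM in the first and 46.1 and 49.7 CPM in the second.

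In the Notch pathway list limma called 0 of 18, with 2 higher at an unadjusted p under 0.05, edgeR called 0, and DESeq2 called 1 (epn-1). The coactivator gene sel-8 was higher by 1.31 ± 0.48 (SE, limma adjusted p = 0.640), at 6.27, 15.4, 8.93 and 18.4 CPM in controls and 22.4, 21.8, 30.6 and 27.3 CPM at 4 h. These 2 groups did not overlap (4 h above all controls in 11.3% of all genes). epn-1, an endocytic adaptor gene, was higher by 1.17, but its 2 h libraries differed between the tables by -1.08.

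In the germline stem cell list limma called 0 of 24, with prom-1 higher and lst-1 and sygl-1 lower at an unadjusted p under 0.05. prom-1, which encodes an F-box protein that promotes meiotic entry and homolog pairing, measured 18.3, 27.8, 20.54 and 28.4 CPM in controls, 40.02, 36.2, 41.4 and 35.8 CPM at 2 h, and 45.8, 44.6, 49.4 and 50.6 CPM at 4 h. The groups of prom-1 did not overlap (4 h above all controls in 11.3% of all genes), and its log2 difference was 0.98 ± 0.23 (SE, limma adjusted p = 0.274). edgeR (adjusted p = 0.00598) and DESeq2 called it, and without the libraries that stood apart it rose by 0.72 (adjusted p = 0.00729).

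**Figure D4:**
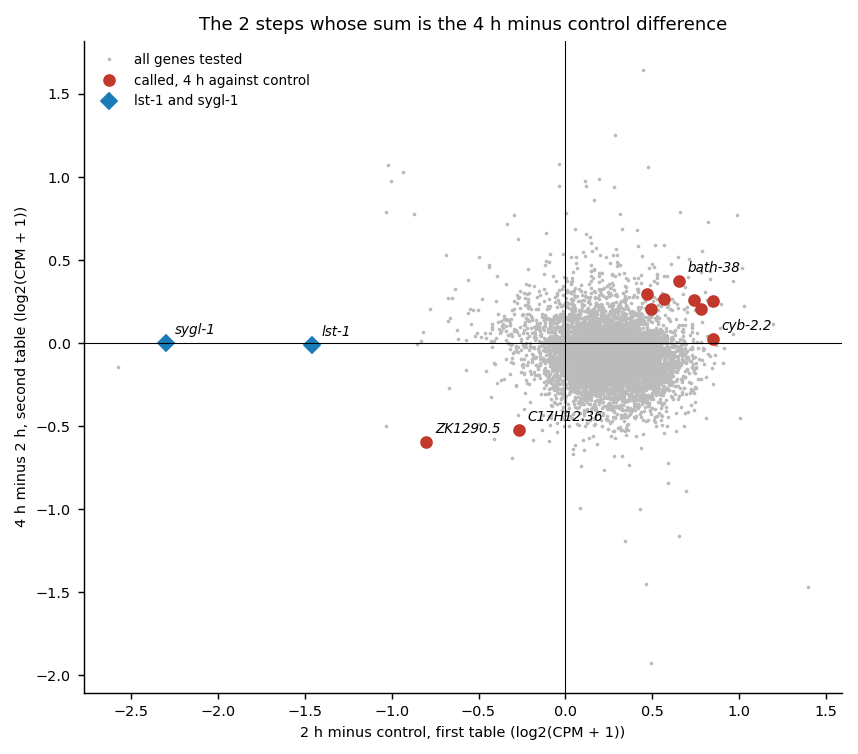
For each of 7240 genes, the log2 step from control to 2 h (x axis, first table) against the step from 2 h to 4 h (y axis, second table), which share no library. The 10 genes that passed (red) lie in the upper right and lower left, where the steps have one sign, and lst-1 and sygl-1 (blue) lie far left at a second step near 0.

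Across genes the steps were weakly and inversely related (Pearson r = -0.14, Spearman rho = -0.13 over 7240 genes, which are not independent replicates). Of genes with a mean of at least 5 CPM and an unadjusted p under 0.05 for the sum, 233 had both steps above 0 and 15 had both below 0, whichever step carried the difference. Tested singly at an unadjusted p under 0.05, both steps were higher in 20 of the 7240 genes and both lower in 5. The 10 with the greatest sums upward were gas-1, chd-3, tub-2, tbc-1, pqn-65, lin-59, hil-2, sel-8, cgp-1 and C09H10.5, at 1.22 to 2.09, and none passed. gas-1, a respiratory complex I gene on the X chromosome, shows what such sums can rest on: it measured 3.33 and 8.23 CPM at 2 h in the second table against 15.1 and 18.3 CPM in the first, and its difference of 2.09 becomes 0.61 when the levels are compared with no table term. tub-2, a Tubby-related gene, was even across tables at 2 h (7.71 and 12.9 then 10.7 and 10.98 CPM), and was 2.05, 6.80, 5.41 and 8.89 CPM in controls against 18.6, 13.8, 20.9 and 22.4 CPM at 4 h. The 10 greatest sums downward ran from -0.42 to -2.30 and were sygl-1, lst-1, T22B7.7, C17H12.36, F14D2.14, F23F1.10, Y73B6BL.12, Y111B2A.2, rpc-11 and ran-4, of which C17H12.36 passed.

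The 2 h libraries measure how far the tables differ. At 2 h, 2 of 7240 genes differed from one to the other (0.0276%): rrn-4.3, a 5S ribosomal RNA gene, was higher in the second table by 2.34, and gln-3, a glutamine synthetase gene, lower by -1.27. For gln-3, the controls measured 3.61 to 4.60 CPM and 2 h libraries 1 and 2 measured 4.98 and 4.38 CPM, whereas 2 h libraries 3 and 4 measured 1.21 and 1.505 CPM and the 4 h libraries 1.15 to 1.71 CPM. Its level followed the table, and its linked difference was 0.12. Over all genes the median size of the difference between tables was 0.106, and 19 genes exceeded 1. X-linked genes were lower in the second table at 2 h in 221 of 278 (79.5%) against 61.1% of 6931 autosomal genes, with medians of -0.22 and -0.04. Of the X-linked genes 0 passed in the 4 h comparison by limma, with 26 higher (9.35%, against 5.07% of all genes) and 7 lower (2.52%, against 0.704%) at an unadjusted p under 0.05. DESeq2 called 8 (5 higher, 3 lower), and edgeR called 1, wrk-1, an immunoglobulin-domain gene, which measured 0.887 to 1.60 CPM in controls, 1.93 to 2.77 CPM at 2 h in both tables and 3.80 to 5.58 CPM at 4 h.

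edgeR on the recovered reads called 22 genes, 17 higher and 5 lower, of which 2 (htp-2 and ZK1290.5) were among the 10 of limma; DESeq2 called all 22. The smallest adjusted p was that of slc-17.2, a predicted transporter gene. It measured 42.7, 66.4, 46.2 and 73.4 CPM in controls, 93.2 and 99.6 then 103 and 94.3 CPM at 2 h, and 126, 131, 138 and 137 CPM at 4 h. The 3 groups of slc-17.2 did not overlap (4 h above all controls in 11.3% of all genes). Its log2 difference was 1.02 by edgeR (adjusted p = 0.000511) and 1.21 by limma (adjusted p = 0.139). The greatest fall after those of lst-1 and ZK1290.5 was F40D4.13, unnamed in the deposited tables, at 21.9, 33.1, 21.8 and 31.9 CPM in controls, 31.3, 25.5, 24.2 and 26.9 CPM at 2 h, and 11.21, 11.18, 12.9 and 14.3 CPM at 4 h. Unlike lst-1, F40D4.13 at 2 h overlapped the controls, and its steps were 0.08 and -0.99.

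**Figure D5:**
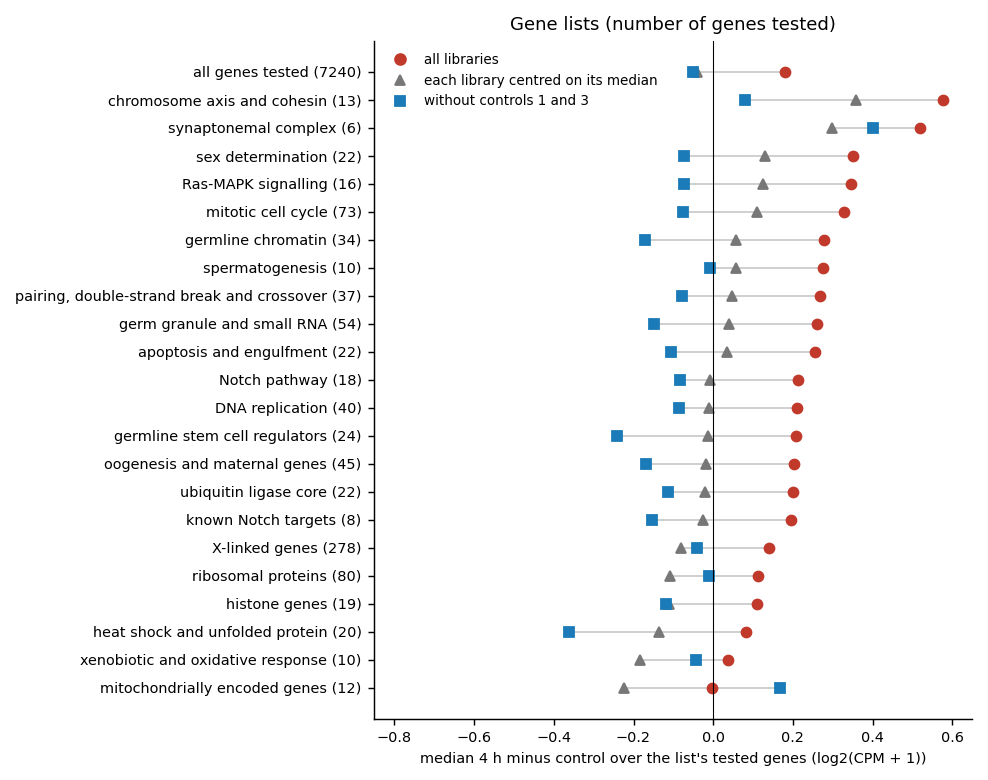
Median log2 difference of 4 h minus control (x axis, log2(CPM + 1)) over the tested genes of each list, for all libraries, after centring each library, and without controls 1 and 3; the top line is all 7240 genes. Chromosome axis and synaptonemal complex genes lie farthest right at 0.58 and 0.52, and most lists move to or below 0 without controls 1 and 3.

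Stress and protein-breakdown genes were also counted, since auxin and the degron system can touch both. Of 20 tested heat shock and unfolded protein genes limma called 0, with 2 higher and 1 lower at an unadjusted p under 0.05, and the median was 0.08. After centring this median was -0.14 (-0.04 over all genes), and without controls 1 and 3 it was -0.36 (-0.05 over all genes). ire-1, the sensor kinase of the unfolded protein response, measured 54.2, 100.5, 64.0 and 103 CPM in controls, 125 to 146 CPM at 2 h and 163, 166, 180.5 and 171 CPM at 4 h. Its groups did not overlap (4 h above all controls in 11.3% of all genes), and the log2 difference was 1.00 ± 0.30 (SE, limma adjusted p = 0.493), called by edgeR (adjusted p = 0.0145) and DESeq2. The chaperone gene dnj-12 was lower at 38.99 to 51.1 CPM at 4 h against 60.1 to 115 CPM in controls (-0.65, limma adjusted p = 0.843), DESeq2 called it, and it fell by 0.99 without the libraries that stood apart. Of 22 tested ubiquitin ligase core genes limma, edgeR and DESeq2 each called 0, with 0 at an unadjusted p under 0.05, and 0 of 10 xenobiotic and oxidative response genes were called by any of them, with 0 at an unadjusted p under 0.05.

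Other germline lists gave 0 calls by limma: oogenesis and maternal genes (45 tested, median 0.20), germ granule and small RNA genes (54, 0.26), sex determination (22, 0.35), apoptosis and engulfment (22, 0.25), Ras-MAPK signalling (16, 0.35), germline chromatin (34, 0.28) and spermatogenesis (10, 0.28). Together with all genes, every one of these medians was at or below 0 without controls 1 and 3. At an unadjusted p under 0.05 these lists held 0 lower genes and between 0 and 4 higher ones. edgeR called 0 in each, and DESeq2 called memi-2 lower, ife-3 lower, rrf-1 higher and spe-39 higher. Histone genes (19 tested, 0 called by limma, median 0.11) held 5 higher at an unadjusted p under 0.05 (5.07% of all genes were). Among them was the linker histone gene hil-2 at 1.34, which DESeq2 called. At 2 h the list was lower in the second table by a median of -0.43 (-0.05 over all genes), which adds to the linked difference. Of the 5, hil-2, his-32 and his-37 were lower there, by -0.47, -0.43 and -0.14. The other members, his-3 and his-31, were higher there by 0.07 and 0.17. Ribosomal protein genes (80 tested, median 0.11) and the 12 mitochondrially encoded genes (median under 0.01 in size) gave 0 calls by limma. They held 1 and 0 higher at an unadjusted p under 0.05. The 1 was rpl-11.2 (1.04), which DESeq2 called. It measured 28.58 to 54.27 CPM in controls and 46.35 to 53.51 CPM at 4 h, so these groups overlapped. The 2 h libraries of rpl-11.2 were lower in the second table by -0.72. edgeR called 0 in the histone, ribosomal protein and mitochondrial lists.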

How the data were processed

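The authors deposited a signal per gene, named CPM in the file headers, in 2 tables of 10 and 6 libraries. The submitters' processing notes list limma, edgeR, featureCounts 1.4.5, Subread and STAR 2.0.4b. The build, annotation, strand setting and handling of reads that match several loci were not stated. Per the labels' protocols, RNA was extracted with Trizol and ribosomal RNA depleted. Each gene was kept once. All nonzero values were whole multiples of 1 read (100%, tolerance 0.1), so reads were recovered for count tests. A count of 0 allows 0.0885 to 0.169 CPM (3 reads). Coordinates come from Ensembl's WBcel235 annotation (46363 of 46536 IDs).

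limma 3.58.1 (R 4.3.3, mean-variance trend) was fitted to log2(CPM + 1) of all 16 libraries with group and table terms, 2-sided, at a threshold of 0.05. The fit was tried on simulated data, which did not carry the ribosomal share or length trend of controls 1 and 3. edgeR 4.0.16 and DESeq2 1.42.0 were alternatives. Every pair of libraries within a group differed beyond sampling noise (lowest chi-square per degree of freedom 4.00). Named genes were 6 Notch and meiotic entry genes, every gene that passed, the 10 greatest rises and falls with both steps one way at 5 CPM or more, and the smallest p of each of 29 lists, of which a selection is named. Others, from edgeR, from the lists or from the fit without 3 libraries, were chosen after their values were seen. Members and lists were chosen with earlier results of these data known.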

Additional observations from a re-analysis of the deposited data

How the results depend on the processing

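The count of 10 genes at 4 h against control became 4 with a pseudocount of 0.1, 0 with no filter (923 of 18555 at an unadjusted p under 0.05), 20 with median centring (13 up, 7 down, 2 shared with the 10), 73 with the length trend removed (49 up, 24 down), 0 with 12 libraries (367 unadjusted), 699 with no table term (465 up, 234 down), 5 without the trend and 120 with array quality weights (81 up, 39 down). edgeR gave 22 and DESeq2 94 (66 up, 28 down). Without controls 1 and 3 it was 8 (5 shared with the 10), without the 48 h library too 51 (28 up, 23 down), and with centring as well, a setting chosen after seeing the data, 248 (48% up). Leaving out 1 library at a time gave 0 to 13. Between tables at 2 h, the count of 2 became 1 with a pseudocount of 0.1, 0 with a filter of 5 CPM, 0 with centring, 13 with the length trend removed, 299 with array weights, 1 by edgeR, 61 by DESeq2, 232 without the 3 libraries and 467 with centring as well. Leaving out 1 library at a time gave 0 to 3.

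The numbers do not pair the libraries: correlations of deviations between same-numbered libraries ran from -0.50 to 0.74. With a replicate block the 4 h count was 0 (901 unadjusted) and lag-1 was 0.16.

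lst-1 passed with values of -1.69 (centring), -1.64 (length trend removed), -1.84 (no table term), -1.72 (array weights), -1.76 (edgeR), -1.78 (DESeq2), -1.94 (without controls 1 and 3, with or without the 48 h library) and -1.89 (those with centring), 9 of 28 alternatives. sygl-1 passed with -2.53, -2.38, -2.88 and -2.49 under the first 4 of these, -3.04 by DESeq2, -2.84 without the 3 libraries and -2.79 with centring as well, 7 of 27, since the filter of 5 CPM removed it. Leaving out 1 library at a time gave -1.65 to -1.21 for lst-1 and -2.62 to -1.94 for sygl-1.

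Signs reversed for 4 genes. lag-1 was 0.17 without control 2, 0.10 without control 4, 0.097 without 2 h library 1 and 0.023 without 4 h library 1, and lay between -0.26 and 0.17 over single libraries left out. glp-1 was -0.076 with the length trend removed, -0.15 with array weights, -0.25 without controls 1 and 3 (with or without the 48 h library) and -0.20 with centring as well. gld-1 was -0.064 with centring, -0.13 with the length trend removed, -0.42 with no table term, -0.29 with array weights, -0.063 by edgeR, -0.080 by DESeq2, -0.36 without controls 1 and 3, -0.31 with centring as well, and between -0.042 and 0.33 over single libraries left out. gld-2 was -0.084, -0.15, -0.24 and -0.19 under the 4 settings listed for glp-1. lag-1 passed at -0.55 with centring and without the 3 libraries. The causes were not tested.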

Other observations

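Small nucleolar RNAs, which guide the chemical modification of ribosomal RNA, stood on the other side of 0 from protein-coding genes. Of those tested, 101 (78.3%) were below 0 and 28 above, with a median log2 difference of -0.18 at 4 h against control, whereas 21.01% of 6787 protein-coding genes were below 0 with a median of 0.19. C17H12.36 fell, and 3 (2.33%) were lower at an unadjusted p under 0.05, against 0.704% of all genes. Their median step was -0.18 from control to 2 h and -0.02 from 2 h to 4 h. At 2 h they were higher in the second table by a median of 0.19, about the size of the difference at 4 h. Whether the ribosomal share and the length trend of controls 1 and 3 have a part in this difference was not tested.

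For a pair of genes chosen after their values were seen, the 2 h libraries overlapped the controls and the 4 h libraries lay below both. They were picked from the 23 genes that fell without controls 1 and 3 and the 48 h library. B0212.3 measured 14.5, 29.2, 17.9 and 25.6 CPM in controls, 27.6, 31.3, 29.3 and 24.9 CPM at 2 h, and 6.97, 12.42, 9.86 and 8.5 CPM at 4 h. Its 4 h libraries lay below all others, with steps of 0.47 and -1.45. sams-3, an S-adenosylmethionine synthetase gene, measured 60.1, 83.8, 63.6 and 88.5 CPM in controls, 59.99 to 78.4 CPM at 2 h, and 35.97, 33.98, 42.2 and 41.8 CPM at 4 h, with steps of 0.05 and -0.64. In the germ granule and small RNA list, hrde-1, a nuclear Argonaute gene, and ife-3, a cap-binding eIF4E gene, fell in that fit by 0.75 and 0.54, while tofu-1 and ife-5 rose by 0.44 and 0.66. ife-5, another eIF4E gene, measured 34.9 to 36.3 CPM at 4 h against 22.6 to 28.7 CPM in controls and 19.9 to 28.9 CPM at 2 h.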
